A study of Mus musculus with 4 samples.

Results

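The genes described here are 10 members of the LIN28 and let-7 axis, taken by symbol from the 43629 Ensembl gene identifiers counted in each library. All 10 were found and all 10 passed the filter on low counts, among 17022 genes tested. They were Lin28a, Lin28b, Trim71 and Dis3l2, which act with or beside LIN28, and Hmga2, Mycn, Igf2bp1, Igf2bp2, Igf2bp3 and Arid3b, which are classic let-7 targets. Expression was measured by reverse-stranded poly(A) RNA sequencing of embryonic stem cells from 129/Ola mice, cultured with serum and LIF, a cytokine that keeps these cells pluripotent. The comparison was of 2 Drosha knockout libraries at passage 7 with 2 wild-type libraries of the E14 line. Knockout library KO1 comes from an allele lacking the Pro-rich region and KO2 from an allele lacking the R/S-rich region of Drosha, both made with paired CRISPR/Cas9 cuts. The wild types were taken at passage 33 (WT1) and passage 42 (WT2) and are labelled as re-used samples. Genotype, passage and the origin of the libraries coincide and cannot be told apart. No label states a replicate culture of the same deletion or of the same wild-type passage. The p-values therefore reflect the spread among these 4 samples alone, in which the knockouts also differ by deletion and the wild types by passage, and how much of it is technical is not known.

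DROSHA cuts primary microRNA transcripts in the nucleus into hairpins, which DICER then trims to mature microRNAs. LIN28 proteins bind let-7 precursors, block their processing and, with terminal uridylyltransferases, mark the hairpins for decay by the exonuclease DIS3L2. Mature let-7 in turn represses Lin28 mRNAs, the ubiquitin ligase gene Trim71 and a set of growth-related mRNAs, so that the pair form a double-negative loop. Embryonic stem cells hold much LIN28A and little mature let-7, and most of their microRNAs belong to the families of miR-294 and miR-302.

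The sequences that define the axis are given first, since the values below are read against them. Mature microRNAs are from RefSeq (GRCm38.p6), 5′ to 3′, with the seed, bases 2 to 8, in capitals. All 9 let-7 family microRNAs in the table shared the seed of let-7a, and miR-294 and miR-302b shared another.
mmu-let-7a-5p: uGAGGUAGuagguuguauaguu
mmu-let-7b-5p: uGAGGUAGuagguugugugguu
mmu-let-7g-5p: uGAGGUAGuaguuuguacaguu
mmu-miR-125b-5p: uCCCUGAGacccuaacuuguga
mmu-miR-294-3p: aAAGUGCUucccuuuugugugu
mmu-miR-302b-3p: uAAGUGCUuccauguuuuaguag

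LIN28 recognises the letters GGAG in the loop of let-7 precursors. These letters stood between the mature arms in 9 of the 12 let-7 family hairpins of the RefSeq table, and not in those of Mirlet7b, Mirlet7c-2 and Mir98. The hairpins below are those with the most reads of each kind in these libraries, with GGAG in capitals.
Mirlet7a-1 (chr13:48538179-48538272, minus strand): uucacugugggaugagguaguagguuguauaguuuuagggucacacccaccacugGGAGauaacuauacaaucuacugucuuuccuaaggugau
Mirlet7g (chr9:106178840-106178927, plus strand): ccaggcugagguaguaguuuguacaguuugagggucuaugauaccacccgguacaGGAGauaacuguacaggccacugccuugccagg
Mirlet7b (chr15:85707319-85707403, plus strand): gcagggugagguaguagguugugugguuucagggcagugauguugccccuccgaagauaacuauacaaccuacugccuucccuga

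The let-7 seed match, CTACCTC on the transcript strand, was searched in the longest annotated 3′ UTR of each gene, with CTACCTCA as its 8-base form. It was found in 8 of the 10 genes, against 9.021% of all 21039 genes with a 3′ UTR, and the 8-base form in 7 of them, against 3.061%. These counts describe genes that were listed as targets to begin with, and their 3′ UTRs were mostly longer than the median of 960 bases. Hmga2 had 4 matches in 3014 bases, Trim71 4 in 5512, Igf2bp1 4 in 6337, Lin28b 4 in 4445 and Lin28a 2 in 2775. Igf2bp2, Igf2bp3 and Arid3b had 1 match each, and Mycn and Dis3l2 had none in windows of 913 and 350 bases. The match of miR-125, CTCAGGG, which overlaps no let-7 match here, occurred in Lin28a, Lin28b, Trim71, Dis3l2, Igf2bp3 and Arid3b and in 13.109% of all genes. The match shared by miR-294 and miR-302, AGCACTT, occurred once each in Lin28b, Trim71, Mycn and Igf2bp1 and in 14.682% of all genes. A match is a description of the letters and not a tested site. The sites below, of 30 bases each with the match in capitals, are those of the genes whose values are followed in detail, with positions on mm10 in GENCODE M21 transcripts, all on the minus strand.
Hmga2, let-7 (chr10:120364221-120364250): gggcgccgacattcaatttCTACCTCAgca
Lin28a, let-7 (chr4:134005186-134005215): gagtgcacagcctgttgaaCTACCTCAttt
Lin28a, miR-125 (chr4:134005298-134005327): tctcaggtacatgagcaatCTCAGGGAtaa
Lin28b, let-7 (chr10:45381019-45381048): cttcacccgggcgggaagtCTACCTCAtgc
Trim71, let-7 (chr9:114512469-114512498): gtacaacattgcctaagtcCTACCTCAgct
Trim71, let-7 (chr9:114512373-114512402): gtgaagtgataatttctatCTACCTCAact
Igf2bp3, let-7 (chr6:49086784-49086813): aacgtgcatttttactcaaCTACCTCAggt
Mycn, miR-294 and miR-302 (chr12:12936136-12936165): atttagtgctgcaccttagAGCACTTtgaa

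**Figure D1:**
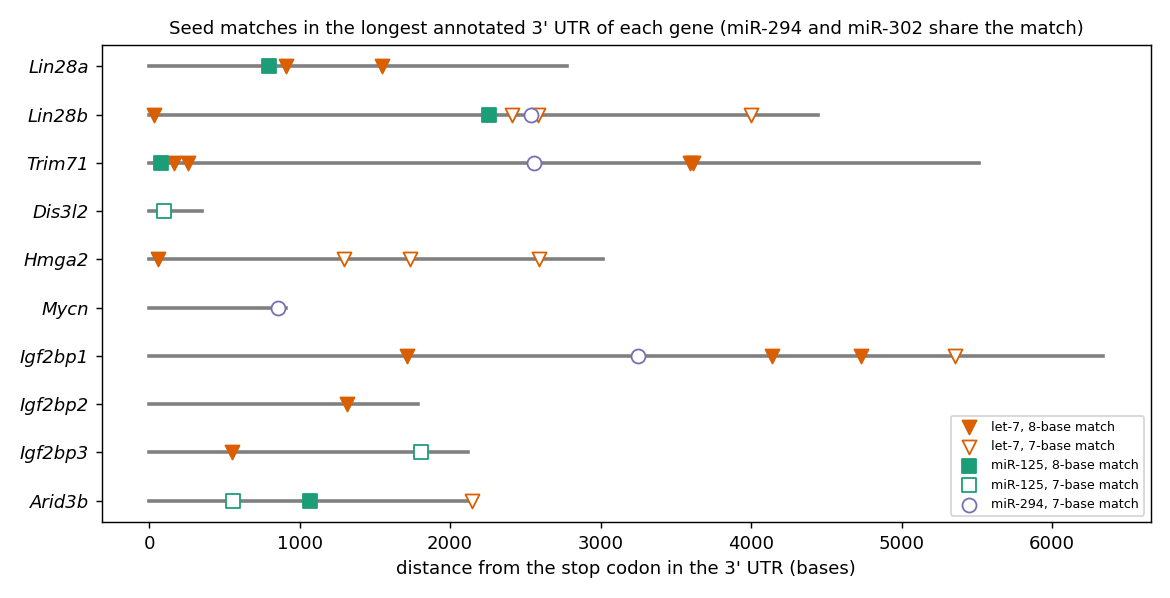
Seed matches in the longest annotated 3′ UTR of each of the 10 genes, by distance from the stop codon in bases, with filled symbols for 8-base and open symbols for 7-base matches and a grey line for the length of the 3′ UTR. Hmga2, Trim71, Igf2bp1 and Lin28b carry 4 let-7 matches each, and Mycn and Dis3l2 carry none.

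Library totals ran from 29264632 counts in KO1 to 42322129 in KO2. Drosha itself checks the labels only in part, since gene-level counts do not show which region was deleted. It stood at 158 CPM in both KO1 and KO2, against 364 and 357 CPM in WT1 and WT2. CPM are counts scaled to a common library size after TMM normalisation, a correction for library composition. Dgcr8, which encodes the partner of DROSHA and whose own mRNA is cut by the pair, had 227 and 233 CPM in the knockouts against 100.5 and 114 CPM in the wild types. The knockout libraries lay far closer to each other than the wild types, with a chi-square per degree of freedom of 2.257 between the knockouts and 166.65 between the wild types. All 6 stem cell markers (Pou5f1, Nanog, Sox2, Zfp42, Esrrb and Tdgf1) were present in every library, and their summed levels were 4060 and 4050 CPM in the knockouts against 3910 and 4570 CPM in the wild types. Markers of other cells were as follows. The 8 feeder fibroblast markers summed to 58.4 and 53.4 CPM in the knockouts against 39.9 and 32.4 CPM in the wild types, where Dcn, Lum and Postn had no count. Of the 6 tested, 0 passed in edgeR. At an unadjusted p under 0.05, 3 were higher, where 19.4% of all genes were, and DESeq2 called 2 higher, where it called 12.9%. The 7 neural markers summed to 112 and 113 CPM in the knockouts against 59.4 and 68.3 CPM in the wild types, with Dcx at 0 throughout, and 2 of the 5 tested rose (Tubb3 and Pax6), where 3.51% of all genes did. The neural list's median log2 fold change of 0.88 was 0.07 with trends of GC and length taken out. Tubb3 then went from 1.13 to 0.15, whereas Pax6 went from 2.47 to 2.63. The 6 markers of primed epiblast summed to 315 and 318 CPM in the knockouts, between WT1 (440 CPM) and WT2 (151 CPM). Most of that sum was Dnmt3b, at 263 and 264 CPM in the knockouts against 409 and 111 CPM in WT1 and WT2. Of the 5 tested, 0 passed in edgeR or DESeq2. All 5 had a log2 fold change above 0, with a median of 0.58. In 4 of them both knockouts lay above both wild types, as in 36.5% of all genes. The part of such cells in the values below was not tested.

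Of the 10 genes, Mycn rose and Hmga2 fell in knockout cells, taking an adjusted p under 0.05 as the threshold (edgeR quasi-likelihood test, Benjamini-Hochberg adjustment over all genes tested), and 8 did not pass. The share of all genes called the same way was 5.45%, with 3.51% higher and 1.94% lower. The members' median log2 fold change, knockout over wild type, was -0.33, against -0.02 over all genes. The knockout values lay wholly outside the wild-type range for 7 of the 10, higher for Mycn and Igf2bp2 and lower for Lin28a, Lin28b, Trim71, Hmga2 and Igf2bp3. That was so for 71.2% of all genes (36.5% higher and 34.8% lower), so the members' share is close to the background. At an unadjusted p under 0.05, 2 members were higher and 4 lower, against 19.4% and 17.7% of all genes. Every call lay near the threshold, since the smallest adjusted p of any gene was 0.0482. No member passed with scaling by library totals or upper quartiles, or with trends of GC and length taken out. Fits with 1 library left out, or with the knockouts summed, leave 1 sample in a group. Counts from those fits are given beside those of all genes in the section on processing.

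**Figure D2:**
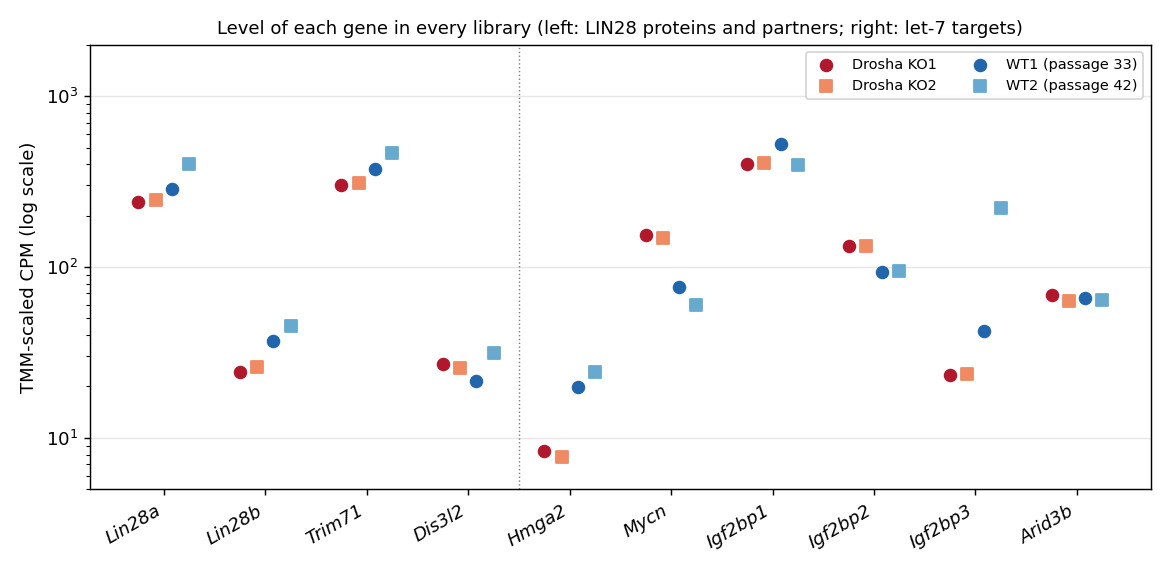
TMM-scaled CPM on a log scale for each of the 10 genes in the knockout libraries KO1 and KO2 and the wild-type libraries WT1 and WT2, each point being 1 library. The knockout points nearly coincide for every gene, whereas Igf2bp3 stands at 42.4 CPM for WT1 and at 222 CPM for WT2.

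Per kilobase of merged exons, which allows levels of different genes to be compared, Lin28a was the most abundant of the 10, at a mean of 61.1 CPM per kilobase in the knockouts and 85.9 in the wild types. Mycn, Igf2bp1 and Trim71 followed in the knockouts at 45.8, 41.4 and 32.9 CPM per kilobase, each order holding in both knockout libraries. In the wild types Igf2bp1 at 47.4 and Trim71 at 45.1 CPM per kilobase overlapped, and Mycn stood below them at 20.7. Igf2bp2 had 18.0 CPM per kilobase in the knockouts and 12.7 in the wild types, and Arid3b had 8.29 in the knockouts and 8.14 in the wild types. Lin28b, Dis3l2 and Hmga2 were the lowest in the wild types, at 4.54, 2.97 and 3.26 CPM per kilobase. Dis3l2 and Hmga2 overlapped there. In the knockouts Igf2bp3 at 2.89 and Dis3l2 at 2.96 CPM per kilobase overlapped, Lin28b at 2.77 lay just below them in both libraries, and Hmga2 was lowest at 1.19. Igf2bp3 had no fixed place in the wild types, at 5.20 CPM per kilobase in WT1 and 27.2 in WT2.

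LIN28A is the RNA-binding protein that blocks let-7 precursors in the cytoplasm of these cells. Lin28a (ENSMUSG00000050966, chromosome 4, 134003330 to 134018841, build mm10) was at 241 CPM (KO1) and 248 CPM (KO2) in the knockouts, against 288 CPM (WT1) and 399 CPM (WT2). Both knockouts lay below both wild types, but the wild types stood further from each other than WT1 did from the knockouts. The log2 fold change was -0.49 ± 0.20 (SE) and did not pass (edgeR adjusted p = 0.154). Without WT2 it was -0.24, and without WT1 -0.70. In bulk RNA, fewer cells expressing a gene and less of its RNA per cell cannot be told apart.

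LIN28B, the paralogue, is best known for acting on let-7 transcripts in the nucleus. Levels of Lin28b (chromosome 10, 45376620 to 45486395) were 24.2 and 26.0 CPM in the knockouts KO1 and KO2, against 36.9 and 45.4 CPM in the wild types WT1 and WT2. The groups did not overlap and the log2 fold change of -0.71 ± 0.17 missed the threshold (edgeR adjusted p = 0.0688, and 0.0262 in DESeq2). It was -0.11 ± 0.11 once trends of the libraries with GC content and exon length had been removed. Per kilobase, Lin28a exceeded Lin28b 22.1-fold in the knockouts and 18.9-fold in the wild types.

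TRIM71, known as LIN-41 in worms, is a let-7 target and a ubiquitin ligase that represses mRNAs of differentiation. Trim71 (chromosome 9, 114507133 to 114564369) had 304 and 310 CPM in the knockouts, against 377 and 465 CPM in the wild types. Its 4 let-7 matches were all of 8 bases, and its mRNA was lower in both knockout libraries than in either wild type. The log2 fold change was -0.46 ± 0.15 (edgeR adjusted p = 0.115), and -0.81 ± 0.24 with trends of GC and length taken out. Without WT2 it was -0.30, and without WT1 -0.59.

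DIS3L2 is the exonuclease that degrades let-7 precursors once LIN28 has led to their uridylation. Dis3l2 (chromosome 1, 86703808 to 87050095) had 27.0 and 25.7 CPM in the knockouts, values between those of WT1 (21.6 CPM) and WT2 (31.3 CPM). The groups overlapped, and the log2 fold change was -0.01 ± 0.23 (edgeR adjusted p = 0.988). Its sign rested on the processing, with 0.63 ± 0.17 when GC and length trends were removed (adjusted p = 0.138).

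Hmga2 encodes a chromatin protein of embryonic and dividing cells and is the textbook let-7 target. Hmga2 (ENSMUSG00000056758, chromosome 10, 120361275 to 120476469) had 8.40 CPM (KO1) and 7.71 CPM (KO2), against 19.8 CPM (WT1) and 24.4 CPM (WT2). Both knockouts were below both wild types, with means of 8.05 ± 0.486 CPM for the knockouts and 22.1 ± 3.31 CPM for the wild types (SD, n = 2 each). Hmga2 fell by 1.46 on the log2 scale (SE 0.19, edgeR adjusted p = 0.0482). Against either wild type alone the change was of like size, at -1.29 over WT1 and -1.60 over WT2, and with trends of GC and length taken out it was -1.09 ± 0.16 (adjusted p = 0.0925). Without KO1 it was -1.52 (adjusted p = 0.395) and without KO2 -1.40 (adjusted p = 0.375). An antisense gene that overlaps its exons, 1700006J14Rik, had 0.746 and 0.721 CPM in the knockouts, against 0.476 and 1.44 CPM in the wild types.

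Mycn encodes N-MYC, a growth-promoting transcription factor of stem and neural progenitor cells. Mycn (ENSMUSG00000037169, chromosome 12, 12936093 to 12941914) reached 155 CPM (KO1) and 147 CPM (KO2), against 76.3 CPM (WT1) and 60.3 CPM (WT2). All knockout values were above all wild-type values, with means of 151 ± 5.23 CPM for the knockouts and 68.3 ± 11.3 CPM for the wild types (SD, n = 2 each), a ratio of 2.21. The log2 fold change was 1.14 ± 0.16 and passed (edgeR adjusted p = 0.0482). With trends of GC and length taken out the log2 fold change was 0.64 ± 0.10 (adjusted p = 0.0949). Without KO1 it was 1.11 (adjusted p = 0.398) and without KO2 1.18 (adjusted p = 0.326). Its 3′ UTR held no 7-base let-7 match and held 1 match of miR-294 and miR-302, printed above. Its paralogue Myc, named after its values were seen, had 47.8 and 49.1 CPM in the knockouts against 55.1 and 40.3 CPM in the wild types, and its groups overlapped.

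**Figure D3:**
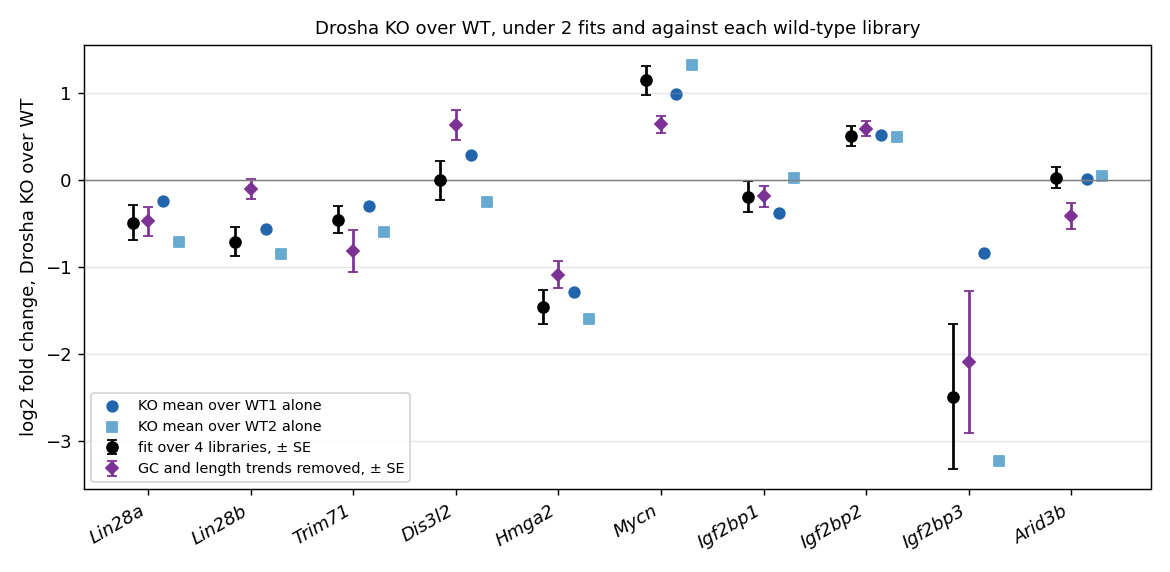
Log2 fold change of Drosha knockout over wild type for each gene, as the fit over 4 libraries with its SE, the same with trends of GC and length taken out, and the knockout mean over WT1 or WT2 alone without a test. Mycn lies above 0 and Hmga2 below 0 under all 4, Dis3l2 takes either sign, and Igf2bp3 is at -0.84 over WT1 and -3.23 over WT2.

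The IGF2BP proteins bind mRNAs in the cytoplasm and protect or localise them, and all 3 genes are let-7 targets of fetal tissues. Igf2bp1 (chromosome 11, 95957163 to 96005940) had 398 and 404 CPM in the knockouts, against 523 and 395 CPM in the wild types. The groups overlapped, and its log2 fold change of -0.19 ± 0.18 did not pass (edgeR adjusted p = 0.459). It was -0.38 without WT2 and 0.03 without WT1. Igf2bp2 (chromosome 16, 22059009 to 22163299) had 133 CPM in both knockouts, against 93.0 and 94.3 CPM in the wild types. The libraries of each group were nearly equal and the groups stood apart, by 0.51 ± 0.11 on the log2 scale, which missed the threshold (edgeR adjusted p = 0.0633). The value was 0.52 over WT1 alone and 0.49 over WT2 alone, and 0.59 ± 0.09 with trends of GC and length taken out.

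Igf2bp3 (ENSMUSG00000029814, chromosome 6, 49085223 to 49214957) differed most of the 10 between the wild types. Its level was 23.5 CPM (KO1) and 23.7 CPM (KO2), against 42.4 CPM (WT1) and 222 CPM (WT2). WT2 exceeded WT1 5.24-fold, and only 0.217% of the genes tested had a ratio of WT2 to WT1 at or above it, itself included. The log2 fold change of knockout over wild type, -2.49 ± 0.83, was the largest in size of the 10 and did not pass (edgeR adjusted p = 0.116), although it did in DESeq2 (adjusted p = 0.000621). Without WT2 it was -0.84, and without WT1 -3.23. In WT2 Igf2bp3 stood above Igf2bp2 per kilobase, at 27.2 against 12.8 CPM per kilobase, whereas Igf2bp2 exceeded it 6.23-fold in KO1, 6.19-fold in KO2 and 2.42-fold in WT1.

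Most markers of extraembryonic endoderm, a cell type that arises spontaneously in such cultures, were, like Igf2bp3, lowest in both knockouts and highest in WT2. The 10 markers summed to 15.9 and 14.8 CPM in KO1 and KO2, against 60.6 CPM (WT1) and 174 CPM (WT2). All 7 that passed the filter were higher in WT2 than in WT1, with a median log2 ratio of 1.40. Of these 7, 1 fell in the knockouts (Cubn), where 1.94% of all genes did, and 6 had both knockout values below both wild types, as 34.8% of all genes did. At an unadjusted p under 0.05, 5 were lower, where 17.7% of all genes were, and DESeq2 called 5 lower, where it called 11.1% of all genes. The list's median log2 fold change was -2.76, and -3.02 with trends of GC and length taken out. Cubn, an endocytic receptor, had 2.98 CPM in each knockout against 29.9 and 72.1 CPM in WT1 and WT2, and the adaptor gene Dab2 had 4.89 and 4.49 CPM in the knockouts against 17.7 and 66.1 CPM. The factor gene Gata6 had 1.04 and 0.924 CPM in the knockouts against 3.43 and 8.83 CPM in the wild types. Amn did not follow, with 1.04 and 1.31 CPM in the knockouts against 1.05 and 1.11 CPM in the wild types. Of the defining genes of more mature endoderm, Afp had no count in either wild type and Ttr was below 0.1 CPM in every library. Ttr stood at 0.0648 and 0.0902 CPM in the knockouts against 0.025 and 0.0278 CPM in the wild types. The part of such cells in the Igf2bp3 values was not tested. The gene Malsu1, whose exons overlap those of Igf2bp3 on the other strand, had 20.5 and 20.3 CPM in the knockouts, against 22.6 and 27.4 CPM in the wild types. Annotated genes on the opposite strand also overlap exons of Lin28a, Trim71, Igf2bp1 and Arid3b, and without a stated strand setting the reads of such pairs cannot be told apart.

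**Figure D4:**
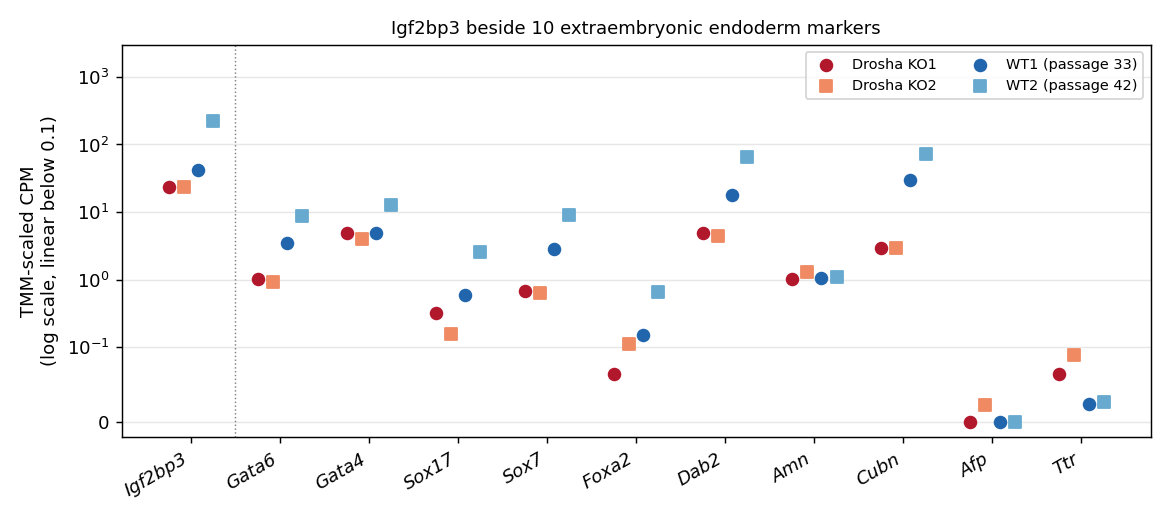
TMM-scaled CPM (log scale, linear below 0.1) of Igf2bp3 and of 10 extraembryonic endoderm markers in the knockout libraries KO1 and KO2 and the wild-type libraries WT1 and WT2, each point being 1 library. WT2 is highest and both knockouts are lowest for Igf2bp3 and for Gata6, Gata4, Sox17, Sox7, Foxa2, Dab2 and Cubn. For Gata4 the margin is narrow, at 4.83 CPM in KO1 against 4.86 CPM in WT1.

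ARID3B is a DNA-binding protein reported to cooperate with MYC family factors. Arid3b (chromosome 9, 57790353 to 57836793) had 69.0 and 63.2 CPM in the knockouts, against 65.6 and 64.2 CPM in the wild types. The groups overlapped, and the fitted log2 difference was 0.03 ± 0.12 (edgeR adjusted p = 0.890), which was -0.42 ± 0.15 with trends of GC and length taken out (adjusted p = 0.193).

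The annotated let-7 genes themselves carried reads almost only in the knockouts. Mature microRNAs have no poly(A) tail, and these counts stand for longer transcripts that cross the loci. Of 12 family members, 10 were among the identifiers counted, 6 had reads in a knockout library, 1 in a wild-type library, and 4 had none anywhere. Summed over the 10, the libraries held 65 reads in KO1 and 103 in KO2, against 2 in WT1 and 1 in WT2. Those totals are small, and intervals and limits given here cover counting error only.

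Mirlet7a-1 had 23 and 45 reads in KO1 and KO2 and none in either wild type. Its knockout mean of 0.880 CPM was at least 11.1-fold higher than the 0.0792 CPM that 3 counts per wild-type library would give. Mirlet7g had 20 and 29 reads in the knockouts against 2 and 1 in the wild types, a ratio of 16.5 with an exact 95% interval of 5.32 to 82.7. Both of these hairpins hold GGAG in the loop. Mirlet7b, which lacks it, had 12 and 14 reads in the knockouts and none in the wild types, at least 4.45-fold higher. Mirlet7c-2, beside it on chromosome 15, had 7 and 10 reads against none, at least 2.85-fold higher. Mirlet7i had 2 and 5 reads in the knockouts and Mir98 had 1 and 0, with none in the wild types. Those of them that passed the filter on low counts did so only through their knockout counts, which fixes the direction beforehand, so the counts are a description with no test.

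**Figure D5:**
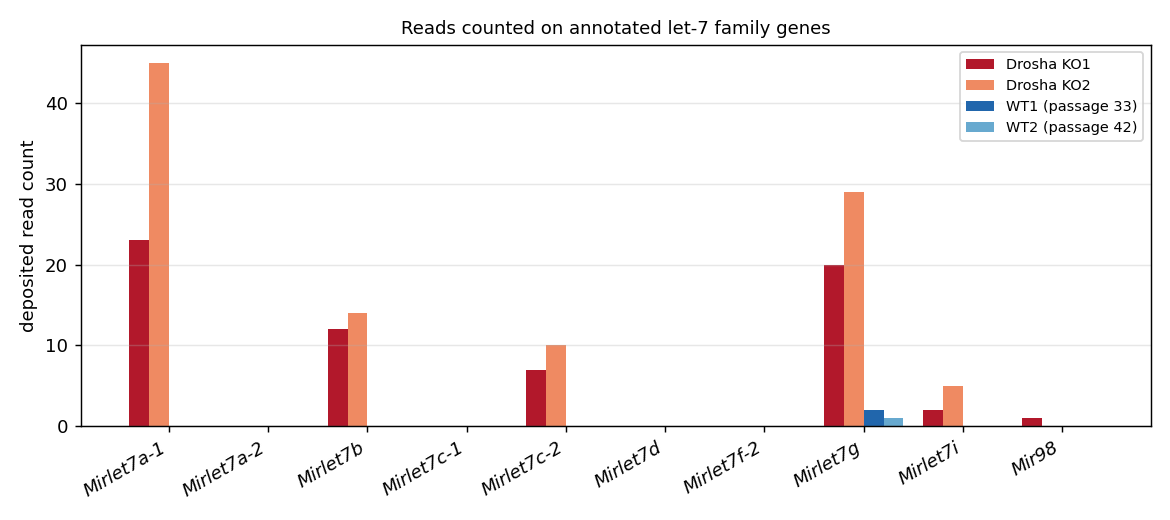
Deposited read counts on the 10 annotated let-7 family genes in the knockout libraries KO1 and KO2 and the wild-type libraries WT1 and WT2, as bars from 0. Mirlet7a-1 has 23 and 45 reads in the knockouts and none in the wild types, and Mirlet7g has 20 and 29 reads against 2 and 1.

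Some of the transcripts around these hairpins are described here. Values are not given for Lncppara, whose exons overlap Mirlet7b and Mirlet7c-2, or for D630033A02Rik, whose exons overlap Mirlet7i. Mirlet7a-1 lies in an exon of the non-coding RNA 6720427I07Rik (chromosome 13, 48532905 to 48546500, same strand), which also spans Mirlet7d and Mirlet7f-1. This RNA, looked up after the let-7 counts were seen, had 9.34 and 9.15 CPM in the knockouts against 3.41 and 3.47 CPM in the wild types. It rose by 1.43 ± 0.19 in log2 terms (edgeR adjusted p = 0.0482, and a change of 2.05 with trends of GC and length taken out). Mirlet7g lies in an intron of Wdr82, a protein-coding gene of a histone methyltransferase complex, on the same strand. Both host genes are named after their values were seen. Wdr82 had 264 and 271 CPM in the knockouts against 325 and 311 CPM in the wild types, and the change of -0.25 ± 0.11 in log2 terms did not pass (edgeR adjusted p = 0.189). Huwe1, the ubiquitin ligase gene whose introns hold Mirlet7f-2 and Mir98, had 622 CPM in both knockouts against 1299 and 876 CPM in the wild types (-0.81 ± 0.23, edgeR adjusted p = 0.0877). With trends of GC and length taken out, the changes were -0.04 for Wdr82 and -0.48 for Huwe1. How reads over a hairpin inside another gene were assigned is not given in the sources used here, and those counts are therefore uncertain.

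Of 11 other regulators of let-7 maturation, 0 passed in either direction in edgeR. At an unadjusted p under 0.05, 1 was higher and 4 lower, where 19.4% of all genes were higher and 17.7% lower (37.1% in either direction). DESeq2 called 2 higher and 3 lower, where it called 12.9% of all genes higher and 11.1% lower. The list's median log2 fold change was -0.33, against -0.02 over all genes. Tut7, a uridylyltransferase that tails let-7 precursors, had the smallest p, with 39.3 and 39.7 CPM in the knockouts against 69.4 and 62.6 CPM in the wild types (-0.74 ± 0.13, edgeR adjusted p = 0.0523). The related enzyme gene Tut4, named after its values were seen, had 80.2 and 77.0 CPM in the knockouts against 119 and 127 CPM in the wild types (-0.65 ± 0.12, adjusted p = 0.0539). The groups stood apart for both enzymes, and the changes shrank to -0.32 for Tut7 and -0.12 for Tut4 with trends of GC and length taken out. Of the 11, 7 lay below 0 and 4 above. Khsrp and Msi1, also named after their values were seen, were higher in the knockouts. Khsrp had 177 and 172 CPM against 111 and 122 CPM (0.59 ± 0.12, edgeR adjusted p = 0.0591). Msi1 had 37.2 and 36.0 CPM against 9.27 and 22.9 CPM (1.19 ± 0.46, edgeR adjusted p = 0.147). With those trends taken out the changes were -0.28 for Khsrp and 0.15 for Msi1.

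Of 28 other let-7 targets, 27 were tested and 0 passed in either direction in edgeR. At an unadjusted p under 0.05, 3 were higher and 7 lower, and DESeq2 called 2 higher and 5 lower, where it called 24.0% of all genes. Their median was -0.22, with 11 above and 16 below 0, and -0.11 with trends of GC and length taken out. Over all genes the median was -0.02, with 8381 above and 8640 below 0, and -0.035 with those trends taken out. Tgfbr1, a TGF-β receptor gene, had the smallest p, at 32.1 and 35.3 CPM in the knockouts against 54.8 and 61.7 CPM in the wild types (-0.79 ± 0.14, edgeR adjusted p = 0.0539). Its change was -0.23 ± 0.10 with those trends taken out. Named after their values were seen, the cyclin gene Ccnd2 had 2.37 and 2.95 CPM in the knockouts against 9.04 and 24.5 CPM in the wild types, whereas Ccnd1 had 178 and 187 CPM in the knockouts against 122 and 111 CPM. The pair thus lay on opposite sides, with log2 fold changes of -2.65 ± 0.56 (edgeR adjusted p = 0.0615) and 0.65 ± 0.12 (adjusted p = 0.0552).

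Downstream of TRIM71, 1 of 7 mRNAs reported as its targets rose and 0 fell, where 3.51% of all genes rose and 1.94% fell. DESeq2 called 1 higher and 1 lower, where it called 12.9% of all genes higher and 11.1% lower. The 1 that rose in edgeR was Egr1, an immediate early transcription factor gene, with 184 and 175 CPM in the knockouts against 74.6 and 88.3 CPM in the wild types. Its change of 1.14 ± 0.14 on the log2 scale passed (edgeR adjusted p = 0.0482) and was 0.27 ± 0.24 with trends of GC and length taken out. None of 6 mRNAs reported as clients of IGF2BP proteins passed in edgeR. At an unadjusted p under 0.05, 1 was higher and 1 lower, where 19.4% of all genes were higher and 17.7% lower. DESeq2 gave the same numbers, against its shares of 12.9% and 11.1%. The imprinted RNA H19 had the smallest p of these, with 0.324 and 0.406 CPM in the knockouts against 2.76 and 1.28 CPM in the wild types (edgeR adjusted p = 0.0617). Nor did any of 9 paralogues of the members pass in edgeR, with 1 higher and 1 lower at an unadjusted p under 0.05 and 0 higher and 1 lower in DESeq2. The shares of all genes to set beside these are the same as for the clients. Dis3, the exosome nuclease gene related to Dis3l2, had the smallest p of them, with 141 and 146 CPM in the knockouts against 219 and 284 CPM in the wild types (edgeR adjusted p = 0.0608). The log2 fold change of Dis3 was -0.81 ± 0.17, and -0.34 ± 0.12 with trends of GC and length taken out.

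The genes nearest in pattern to Lin28a, Hmga2 and Mycn were found by the Euclidean distance between log2 CPM profiles, centred over the 4 libraries, among 10064 genes with a mean log2 CPM of at least 3. For Lin28a they were 1190002N15Rik, Sp4 and Memo1, at distances of 0.005, 0.016 and 0.019. For Mycn they were Avpi1, Rdm1 and Ddit3, at 0.018, 0.020 and 0.035. Hmga2 had no neighbour as close, with Gm13230, Zfp808 and Arfgef1 at 0.081, 0.128 and 0.149. With 4 libraries such likeness is a description only.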

How the data were processed

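The authors deposited raw read counts per Ensembl gene for 4 libraries, with no normalisation. Per the submitters' processing notes, the tools were STAR 2.4.2a and featureCounts 1.4.5-p1 and the genome build was mm10. The release of the annotation, the strand setting and the treatment of ambiguous reads are not given in the sources used here. Symbols came from a gene name table, which matched 97.3% of identifiers. Coordinates, merged exon lengths and 3′ UTRs came from GENCODE M21 on the same build.

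The main test was that of edgeR 4.0.16, run in R 4.3.3 (TMM scaling, filter at a minimum count of 10 and a total of 15, quasi-likelihood fit of group alone, Benjamini-Hochberg adjustment over 17022 genes, threshold 0.05). A single count was worth 0.0236 to 0.0342 CPM before scaling. Log2 ratios of single libraries used a prior count of 2. Alternatives were DESeq2 1.42.0, other scalings and filters, each library left out, the knockouts summed, a replicate block, and trends of GC and length taken out by lowess. Of the genes tested, 99.3% had a GC value. The procedure was run on simulated data in which all libraries shared the same spread. The changes planted there were larger than those of Mycn and Hmga2. That run therefore does not cover groups of unequal spread, such as these.

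The members and lists were chosen with earlier results of these data known. Named genes were all members, Drosha and Dgcr8 as the label check, up to 3 called genes in each direction per list or else the smallest p, let-7 genes with 10 or more reads, and the nearest 3 patterns. Genes said to be named after their values were seen fall outside this rule, as do the marker genes given for the endoderm list, 1700006J14Rik, Malsu1, the host genes Wdr82 and Huwe1, Mirlet7i and Mir98.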

Additional observations from a re-analysis of the deposited data

How the results depend on the processing

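Counts of calls moved widely with the setting, since the calls lay just under the threshold. Among the members' log2 fold changes, those of Hmga2 and Igf2bp2 kept their sign and stayed within 1.5 times their value under every alternative run. Scaling by library totals, scaling by upper quartiles, summing the knockouts and removing GC and length trends each left 0 higher and 0 lower among all genes, the members, the let-7 genes and hosts, and the TRIM71 targets (edgeR, with 6116, 6267, 1821 and 4299 genes at an unadjusted p under 0.05). For let-7 genes and hosts, the main edgeR fit gave 2 higher, and all such counts are a description, since the filter fixed their direction. Library totals moved the median log2 fold change of all genes to 0.13 and that of the members to -0.18. DESeq2 called 2073 genes higher and 1778 lower, among them 1 member higher and 3 lower, 2 and 5 other let-7 targets, and 2 and 3 regulators. It also called 1 and 1 let-7 genes or hosts, 1 and 1 TRIM71 targets, 1 and 1 IGF2BP clients and 1 paralogue lower. No filter gave 1608 higher and 1055 lower, with 2 and 4 other let-7 targets, 3 regulators lower, 4 let-7 genes higher, 1 client lower and 1 paralogue lower. At least 1 CPM in 2 libraries gave 844 higher and 596 lower, with 1 other let-7 target lower, 3 regulators lower and 0 let-7 genes higher. With the replicate number as a block, 1353 genes were higher and 576 lower, with 2 members lower (Igf2bp3 at -2.05, edgeR adjusted p = 0.0457, besides Hmga2), 1 and 1 other let-7 targets, 1 regulator lower and 1 client lower. The log2 CPM difference of KO1 from KO2 had a correlation of 0.046 with that of WT1 from WT2, over 17022 genes. The spread between the knockouts was far smaller than that between the wild types, so this value cannot show whether same-numbered libraries share anything. The labels give only a replicate number, and the block pairs nothing known.

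Leaving out 1 library at a time gave 0 to 6974 genes higher and 0 to 6598 lower, the high ends without WT1 or WT2, fits in which only the knockout pair supplies the spread. The ranges were 0 to 3 and 0 to 6 for the members, 0 to 11 and 0 to 14 for other let-7 targets, 0 to 4 and 0 to 7 for regulators, 0 to 3 and 0 to 2 for let-7 genes and hosts, 0 to 4 and 0 to 4 for both TRIM71 targets and IGF2BP clients, and 0 to 7 and 0 to 4 for paralogues. The members' median ran from -0.42 to -0.27. Of the members, 3 changed sign. Dis3l2 was at 0.15 with library totals, 0.037 with upper quartiles, 0.017 with the block and 0.63 with trends removed, and ran from -0.25 to 0.28 with 1 library left out. Igf2bp1 ran from -0.382 to 0.029 likewise. Arid3b was at -0.42 with trends removed and ran from -0.039 to 0.088. Where the construction of an alternative does not show it, the cause was not tested.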

Other observations

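Seed matches were also counted over all genes tested, as a description. Genes with an 8-base let-7 match in the 3′ UTR numbered 529 and had a median log2 fold change of -0.12, knockout over wild type, with 2.46% higher and 1.70% lower (edgeR adjusted p under 0.05). Those without a 7-base let-7 match numbered 12661 and had a median of 0.02, with 3.81% higher and 1.94% lower. For the 7-base match of miR-294 and miR-302 the medians were -0.21 over 2386 genes that hold it and 0.06 over 11761 that do not. Holders had longer 3′ UTRs, with medians of 2399 bases for the let-7 8-base match and 2483 bases for the miR-294 match, against 1018 and 928 bases for genes without the 7-base matches. With trends of GC and exon length taken out, the medians were -0.02 for genes with the 8-base let-7 match and -0.03 for those without a 7-base one, and -0.02 and -0.03 for genes with and without the miR-294 match.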
